A study of Rattus norvegicus with 6 samples.

Results

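Granins are acidic proteins stored with peptide hormones in dense-core secretory granules, and prohormone processing enzymes cut the hormone precursors in those granules into active peptides. The 10 genes described here are the granin family members Scg5, Scg2, Scg3, Chga, Chgb and Vgf, the convertases Pcsk1 and Pcsk2, the carboxypeptidase Cpe and the convertase inhibitor Pcsk1n. They were looked up by name among the 30562 genes of a count table from rat tail discs, and each name matched a single gene. The genes were selected on the measured counts of Scg5, which were far higher in libraries with the label AF-PTK@LEV@SPP1 than in Control, and so for these genes the difference between the labels is given as a description, with no test. Of the 10 genes, 5 had enough counts for the fit, in which 15537 genes were tested across the table.

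The table held 3 libraries labelled Control and 3 labelled AF-PTK@LEV@SPP1, and all were described as intervertebral disc of wild-type (WT) genotype. The paper described male Sprague–Dawley rats, 12 weeks old, whose tail disc was injured with a needle before PBS or AF-PTK@LEV@SPP1 was injected over 8 weeks. AF-PTK@LEV@SPP1 is a hybrid vesicle made by fusing liposomes with bacterial outer membrane vesicles. Its cargo is an siRNA against Spp1, and a linker cut by reactive oxygen species attaches a peptide with affinity for the annulus fibrosus. The sample labels differ from this account. They give an untreated control, 14 days of treatment, and macrophages sorted from discs of mice by F4/80 and CD11b, whereas the paper describes whole disc tissue of rats. The submitters' processing notes list the mouse build mm10, while the gene identifiers of the table are those of rat. Which account holds for these libraries was not settled by the labels, and the columns of the table named IVD were taken as Control.

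The Control libraries 1, 2 and 3 held 17942989, 16565291 and 17489851 counts, and the other 3, called treated-label libraries below, held 17074981, 15560728 and 17855184. At this depth 3 counts, taken as the smallest measurable level, stood at 0.167 to 0.193 CPM, which are counts scaled to a common library size. Control 2 and Control 3 were nearly the same library. Their variance, over 14393 genes that reached 20 counts in the pair, was 1.33 times that of counting noise and 16 genes differed, against 51.3 to 107 times for the other pairs within a group. Their values were counted as 1 sample in every mean, and their counts were summed in the fit, which left n = 2 distinct Control samples and n = 3 treated-label samples. Values below are CPM normalized by the trimmed mean of M-values unless counts are named, and mean ± SD is taken over distinct samples.

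The RNA was rich in cartilage and fibrous matrix transcripts. Col2a1, the main collagen of cartilage, had 13870, 21180 and 20970 normalized CPM in Control 1, 2 and 3 and 25930, 20270 and 31870 in the treated-label libraries. Col1a1, the collagen of the outer annulus, had 31910, 44840 and 45140 against 64000, 45730 and 51070. Adgre1, which encodes F4/80, had 42.9, 19.6 and 17.4 in Control and 15.3, 19.9 and 19.5 in the treated-label libraries. The matrix genes were thus abundant in all 6 libraries, which goes against a pure macrophage sort. Spp1, against which the siRNA was made, stood at 8119, 4421 and 4426 in Control and 8044, 6869 and 8431 in the treated-label libraries. The groups overlapped for Spp1, with a log2 fold change of 0.31 (SE 0.37, adjusted p = 0.628 in edgeR's quasi-likelihood test with Benjamini-Hochberg adjustment). The target thus gave no check of the labels, and every direction below is relative to them.

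Prohormones are cleaved at pairs of basic residues by the convertases, and the exposed basic residues are then removed by carboxypeptidase E. Each convertase has a partner protein, the product of Scg5 for the enzyme encoded by Pcsk2 and the product of Pcsk1n for the enzyme encoded by Pcsk1. The pathway is best known in neuroendocrine cells and neurons, and the disc is a tissue of matrix-producing cells with few nerves. In bulk tissue, fewer cells of a type and less RNA per cell cannot be told apart. No transcript lengths were used, so levels are compared between libraries, and where different genes are set side by side below, their counts are described and not their transcript levels.

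Scg5 encodes the protein 7B2, a granin family member that binds the proform of the convertase encoded by Pcsk2 and is needed for its activation. The gene (ENSRNOG00000007542) spans chromosome 3 from 100544099 to 100588463 on the minus strand in the coordinates of the table, whose build was not named. It had 12, 36 and 35 counts in Control 1, 2 and 3 and 461, 375 and 1123 in the treated-label libraries, or 0.616, 2.32 and 2.14 against 27.1, 22.5 and 63.8 normalized CPM. All 3 treated-label libraries were higher than every Control library, library 3 stood above the other labelled libraries, and Control 1 was the lowest of the 6. The mean was 37.8 ± 22.6 (SD, n = 3) in the treated-label libraries and 1.42 ± 1.14 (SD, n = 2 distinct samples) in Control, a ratio of 26.5 and a log2 fold change of 4.66 (SE 0.80). This difference selected the genes, and nothing is concluded from it.

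The remaining granins were found at or near the smallest measurable level. Scg3, which encodes a granin that sorts chromogranin A into granules, spans chromosome 8 from 76399777 to 76442015 on the minus strand (ENSRNOG00000010784). It had 2, 5 and 2 counts in Control and 9, 11 and 9 in the treated-label libraries. Every treated-label library exceeded every Control library, and the ratio of the summed counts per total was 3.32 (95% interval 1.53 to 7.97, counting error only). Scg2, the precursor of secretoneurin, lies on chromosome 9 from 80803075 to 80821097 on the minus strand (ENSRNOG00000015055). It went the other way, with 8, 5 and 9 counts in Control and 1, 0 and 2 in the treated-label libraries. The Control sum was 7.12 times that of the other group per total (95% interval 2.14 to 37.2, counting error only), and the groups did not overlap.

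Chga, which encodes chromogranin A, lies on chromosome 6 from 121696051 to 121707398 on the plus strand (ENSRNOG00000052549). It had 2, 1 and 0 counts in Control and 0 in each treated-label library, so no fold was computed. Chgb, which encodes chromogranin B, lies on chromosome 3 from 120043738 to 120057166 on the plus strand (ENSRNOG00000021269), and its 2, 3 and 3 counts in Control overlapped the 1, 4 and 1 of the other group. Vgf, a precursor of neuropeptides, lies on chromosome 12 from 19637320 to 19640341 on the minus strand (ENSRNOG00000001416). It had 0, 4 and 0 counts in Control and 0, 0 and 1 in the treated-label libraries, and its span overlaps that of Ap1s1 on the opposite strand. No difference in these 3 genes was detectable at this depth. Scg5 was the only granin family member among the 6 with more than 11 counts in any library.

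**Figure D1:**
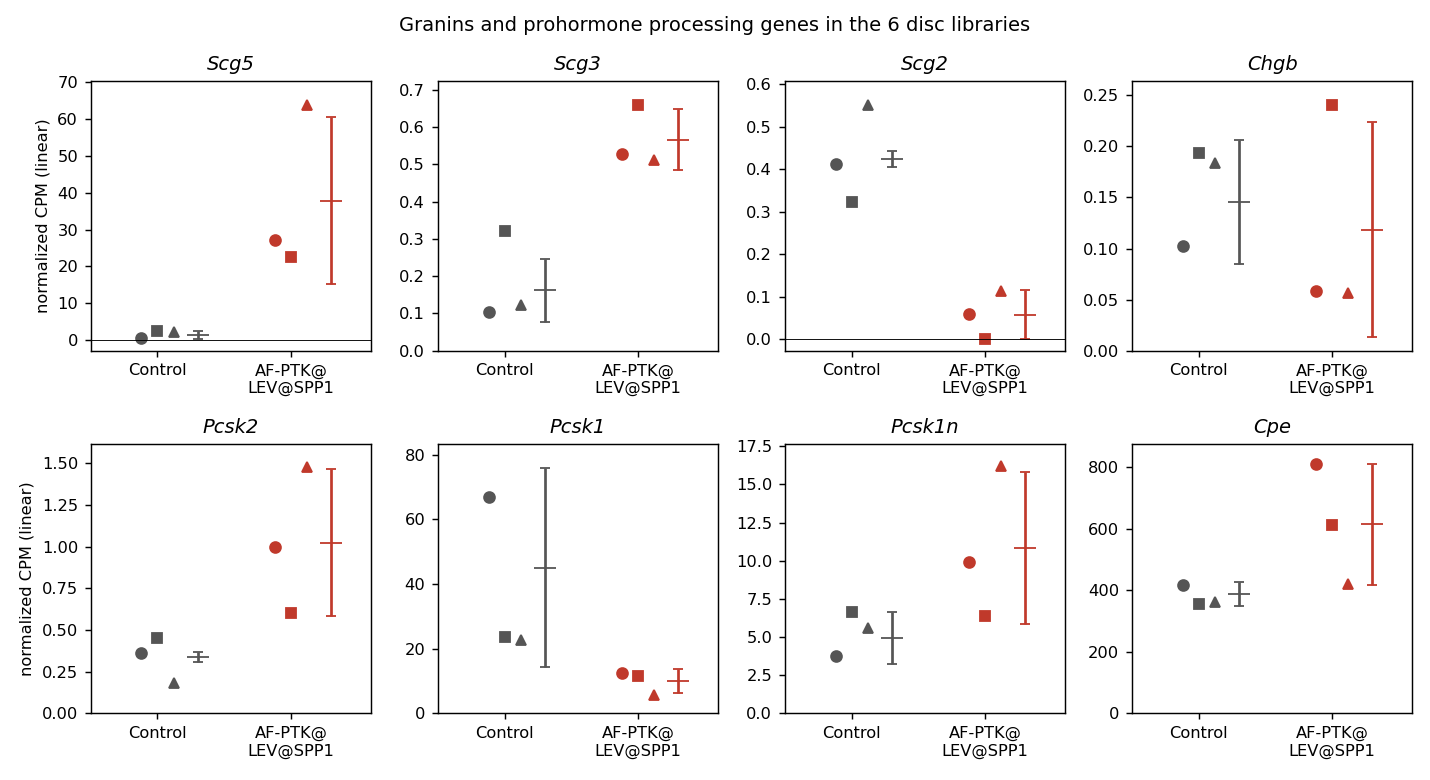
Normalized CPM (linear axis, starting at or below 0) of 8 of the genes in the Control libraries (grey) and the treated-label libraries (red), where circles, squares and triangles are libraries 1, 2 and 3 and the bar beside them is mean ± SD over distinct samples (n = 2 and n = 3). Scg5 runs from 0.616 to 2.32 in Control and from 22.5 to 63.8 in the other group, while Chgb overlaps between the groups.

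Pcsk2 encodes the convertase that works together with the product of Scg5. It lies on chromosome 3 from 130880422 to 131183127 on the plus strand (ENSRNOG00000005438), and a pseudogene, Wbp4-ps1, lies within its span on the other strand. Its counts were 7, 7 and 3 in Control and 17, 10 and 26 in the treated-label libraries, or 0.359, 0.451 and 0.184 against 0.998, 0.600 and 1.48 normalized CPM. The groups did not overlap, and library 3 was again the highest. The log2 fold change was 1.596 (SE 0.54). Pcsk2 passed the filter on low counts only through the treated-label libraries, so a difference in this direction was built into its passing.

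For each count of Pcsk2 there were 1.71, 5.14 and 11.7 counts of Scg5 in Control 1, 2 and 3 and 27.1, 37.5 and 43.2 in the treated-label libraries. The numerator is the count that selected the genes, so the difference of this ratio between the groups restates the selection and nothing is read from it. Control 2 and 3, the near-identical pair, differed by more than a factor of 2 at the few counts of Pcsk2 they held. The ratio is one of counts within a library and takes no account of transcript length.

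Pcsk1 encodes the other neuroendocrine convertase and had a log2 fold change of opposite sign to that of Pcsk2. It lies on chromosome 2 from 4395543 to 4442434 on the plus strand (ENSRNOG00000011107). Its counts were 1303, 368 and 373 in Control and 213, 194 and 100 in the treated-label libraries, which gave 66.9, 23.7 and 22.8 against 12.5, 11.7 and 5.68 normalized CPM. Every treated-label library was below every Control library, and Control 1 stood well above the other Control libraries. The means were 45.1 ± 30.9 (SD, n = 2 distinct samples) in Control and 9.94 ± 3.72 (SD, n = 3), with a log2 fold change of -2.18 (SE 0.54). Without Control 1 the log2 fold change was -1.24.

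Pcsk1n encodes proSAAS, a granin-like protein that inhibits the product of Pcsk1. It lies on chromosome X from 14580038 to 14583566 on the minus strand (ENSRNOG00000046021). Its counts were 73, 103 and 92 in Control and 169, 106 and 285 in the treated-label libraries, or 3.75, 6.64 and 5.63 against 9.92, 6.36 and 16.2 normalized CPM. Library 3 was the highest and library 2 was below Control 2, so the groups touched when all libraries were read apart, while the distinct samples did not overlap. The log2 fold change was 1.12 (SE 0.47), from 4.94 ± 1.69 (SD, n = 2 distinct samples) to 10.8 ± 4.97 (SD, n = 3).

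The log2 fold changes of the convertase and its inhibitor had opposite signs, and this difference was not tested. There were 17.8, 3.57 and 4.05 counts of Pcsk1 for each count of Pcsk1n in Control 1, 2 and 3 and 1.26, 1.83 and 0.351 in the treated-label libraries. These ratios of counts did not overlap between the groups. The distinct samples of Pcsk1 were all lower and those of Pcsk1n all higher, as in 22.2% and 23.6% of all genes tested. The ratio restates these separations, and nothing is read from it.

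Cpe encodes carboxypeptidase E, which trims the basic residues that the convertases leave. It lies on chromosome 16 from 25030276 to 25142233 on the plus strand (ENSRNOG00000043387). It had 8098, 5532 and 5934 counts in Control and 13817, 10211 and 7380 in the treated-label libraries. In normalized CPM these were 416, 357 and 363 against 811, 613 and 419. Library 3 lay close to Control 1, and library 1 was the highest. The means were 388 ± 39.5 (SD, n = 2 distinct samples) and 614 ± 196 (SD, n = 3), with a log2 fold change of 0.66 (SE 0.31). The counts of Scg5 were 0.148%, 0.651% and 0.590% of those of Cpe in Control and 3.34%, 3.67% and 15.2% in the treated-label libraries, which likewise restates the selection.

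Treated-label library 3 had the highest normalized CPM of Scg5, Pcsk2 and Pcsk1n and the lowest of Pcsk1, whereas library 1 was the highest for Cpe. In 4 of the 5 genes in the fit the treated-label samples were all higher, and in Pcsk1 all lower, as were 23.6% and 22.2% of all genes tested. The contrast chose these genes, and nothing is read from these counts.

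The neighbours of Scg5 on chromosome 3 were read after its own values had been seen. Within 500000 bases on either side the table lists 10 genes with Scg5 included, of which 7 were tested. Grem1, which encodes a secreted antagonist of bone morphogenetic proteins, lies 20016 bases from Scg5 on the same strand, from 100512313 to 100524082. It had 168, 399 and 398 normalized CPM in Control and 3023, 1131 and 3578 in the treated-label libraries, with no overlap. Its log2 fold change was 3.18 (SE 0.70, adjusted p = 0.0753 in edgeR's quasi-likelihood test with Benjamini-Hochberg adjustment), which did not pass. Over the 12 alternative settings its adjusted p ran from 4e-06 to 0.202 and was under 0.05 in 2, DESeq2 and edgeR with all 6 libraries kept.

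On the other side, Arhgap11a lies 2401 bases beyond the span of Scg5 and is on the same strand. It had 33.6, 21.0 and 20.4 normalized CPM in Control and 13.9, 38.8 and 34.1 in the treated-label libraries, so the groups overlapped (log2 fold change 0.09, SE 0.48). Fmn1, Actc1, Aqr and Zfp770 had log2 fold changes of 0.46, 0.32, -0.07 and 0.05 and also overlapped. Tmco5b, Gjd2 and an unnamed gene had 3 or fewer counts in every library. Of the 6 other tested genes near Scg5, only Grem1 had distinct samples that did not overlap, all of them higher, as in 23.6% of all genes tested.

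**Figure D2:**
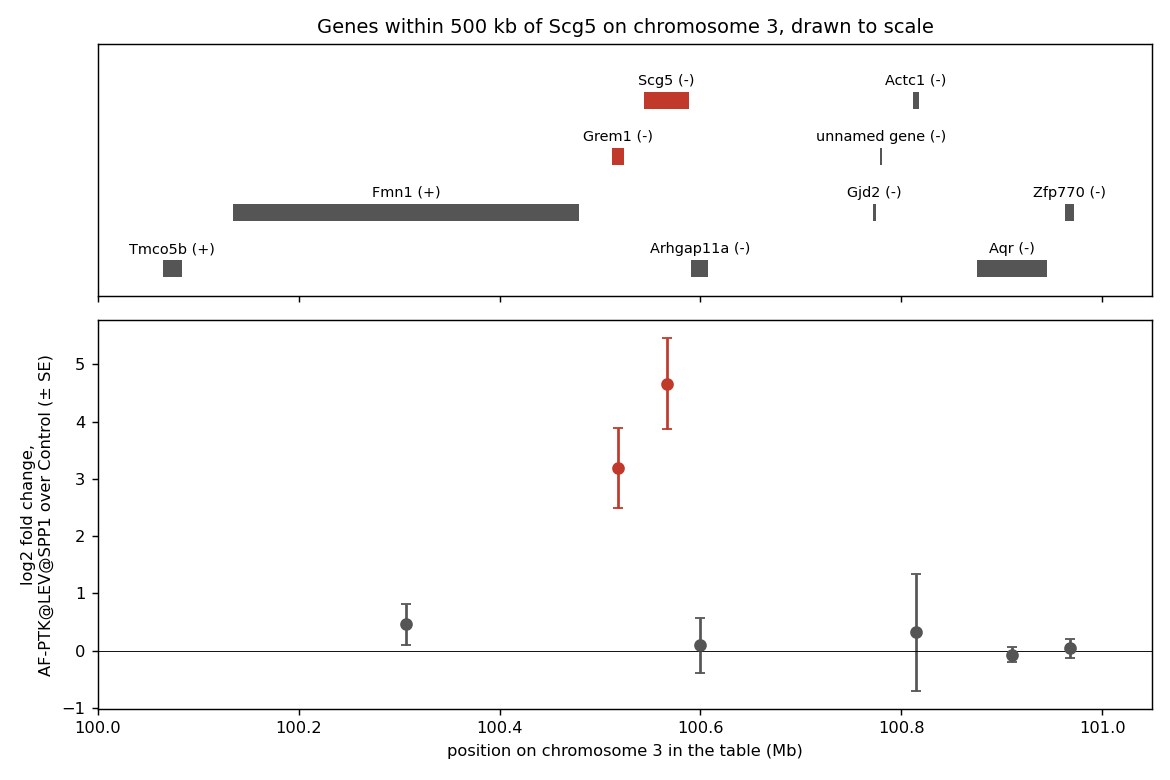
Genes within 500000 bases of Scg5 on chromosome 3 in the coordinates of the table (Mb), drawn to scale with their strand, above the log2 fold change of the treated-label libraries over Control (± SE) of the 7 tested genes. Scg5 at 4.66 and Grem1 at 3.18, in red, stand apart from the others, which lie between -0.07 and 0.46.

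The genes whose pattern over the 5 distinct samples was closest to that of Scg5 were found by the Euclidean distance between log2 values centred on their mean. The closest were Colec10 at a distance of 1.31, Dio1 at 1.66, Nkain2 at 1.75, Grem1 at 1.93 and LOC120103261 at 1.95. Colec10, a collectin of innate immunity, had 8, 20 and 28 counts in Control and 331, 121 and 330 in the treated-label libraries. Dio1, a deiodinase that activates thyroid hormone, had 8, 10 and 11 against 585, 206 and 359. In neither gene did library 3 stand well above library 1, as it did in Scg5. They were picked for their likeness to Scg5, and their differences are not tested.

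Promoter sequences were taken from RefSeq (GRCr8), as 300 bases from 250 before to 50 after the start of each gene, and 8 of the 10 genes were found there; Chga and Pcsk1 were not. The letters searched, on both strands, were the cAMP response element TGACGTCA, its core TGACG, which TGACGTCA contains, TATAAA, the GC box GGGCGG and the AP-1 motif TGANTCA. TGACGTCA occurred in Scg2 and Vgf, 2 of 8, against 1.83% of 33469 promoters. TGACG occurred in 6 of 8 (Scg5, Scg2, Scg3, Pcsk2, Cpe and Vgf) and in 21.2% of all promoters. GGGCGG occurred in 6 of 8 (Scg5, Chgb, Pcsk2, Cpe, Vgf and Pcsk1n) and in 33.1%, TATAAA in Vgf and in 14.2%, and TGANTCA in 0 of 8 and in 7.33%. A match is a description of the letters, not a binding site or a cause.

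The windows below are shown because Scg5 and its neighbour Grem1 were both high in the treated-label libraries, and because Scg2 and Vgf hold the full element. Each is written 5′ to 3′ along the gene. Capitals mark TGACG and GGGCGG in Scg5, GGGCGG in Grem1, TGACGTCA in Scg2, and TGACGTCA with TATAAA on either strand in Vgf, and other matches stay in lower case. The windows are chr3:121042796-121042895 for Scg5, chr3:120978420-120978519 for Grem1, chr9:88256937-88257036 for Scg2 and chr12:25277021-25277120 for Vgf, all on the minus strand of GRCr8.
Scg5: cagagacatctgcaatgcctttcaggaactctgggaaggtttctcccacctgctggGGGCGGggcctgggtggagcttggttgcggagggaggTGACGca
Grem1: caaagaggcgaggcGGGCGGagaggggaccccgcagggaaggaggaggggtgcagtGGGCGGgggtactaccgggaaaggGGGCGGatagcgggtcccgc
Scg2: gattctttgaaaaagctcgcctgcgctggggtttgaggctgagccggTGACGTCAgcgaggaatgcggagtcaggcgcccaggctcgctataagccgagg
Vgf: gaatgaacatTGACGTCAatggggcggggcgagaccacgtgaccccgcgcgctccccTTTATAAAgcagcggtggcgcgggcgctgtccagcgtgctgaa
In Scg5 the GC box begins 44 bases and TGACG 7 bases before the start of the gene, and CGTCA, the same core on the other strand, lies after the start. Grem1 had 3 GC boxes in its window and neither TGACG nor TGACGTCA in its 300 bases.

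Genes of the wider peptide processing pathway that the selection did not name were taken from 4 lists, with 77 genes in the table and 37 tested. In edgeR's quasi-likelihood test with Benjamini-Hochberg adjustment over all genes, 3 of the 37 were called lower in the treated-label libraries and 0 higher, with 13 lower and 4 higher at an unadjusted p under 0.05 and 8 lower and 4 higher in DESeq2. Over the 15537 genes tested in the table, edgeR called 2.57% lower and 1.13% higher, and 13.0% lower and 12.4% higher had an unadjusted p under 0.05. DESeq2 called 8.54% lower and 6.53% higher of 16538 genes. With all 6 libraries kept apart, 11 of the listed genes were called lower and 3 higher, where 9.93% and 8.2% of the 15042 genes tested were. The median log2 fold change of the 37 was -0.27, against 0.05 over all genes tested. The called genes included the precursor Gal and the carboxypeptidase-like Cpxm1. None of the 3 was called without treated-label library 2 or without treated-label library 3, and in each of those cases no gene of the table was. At an unadjusted p under 0.05 there were then 3109 and 2699 genes in edgeR, against 3941 with every library. Without treated-label library 1 the lists held 1 called gene.

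Gal encodes the precursor of the neuropeptide galanin, a substrate of the processing pathway. It had 313, 372 and 343 counts in Control and 9 in each treated-label library, so the groups were far apart and the latter alike. Its mean fell from 19.3 ± 4.54 (SD, n = 2 distinct samples) to 0.527 ± 0.0147 normalized CPM (SD, n = 3), a log2 fold change of -5.18 (SE 0.24, adjusted p = 0.00863 in edgeR's quasi-likelihood test with Benjamini-Hochberg adjustment). Over the 12 alternatives the adjusted p was 6.03e-33 to 0.127 and passed in 10.

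Of the 37 listed peptide precursors, 10 were tested and the remainder had few or no counts. In edgeR 2 of the 10 were called lower and 0 higher, where 2.57% and 1.13% of all genes tested were. At an unadjusted p under 0.05 there were 5 lower and 1 higher, against 13.0% and 12.4% of all genes. In DESeq2 there were 4 lower and 1 higher, against 8.54% and 6.53%. The median log2 fold change of the 10 was -1.24, against 0.05 over all genes tested. Tac1, Grp, Ins1, Ins2, Cartpt and Uts2 had 0 counts in all 6 libraries. The tested precursors with the highest mean were Apln, Adm and Penk. Apln, the precursor of apelin, had 24.5, 40.9 and 42.0 normalized CPM in Control and 14.0, 11.3 and 14.4 in the treated-label libraries and did not pass (log2 fold change -1.33, adjusted p = 0.0605 in edgeR, under 0.05 in 4 of 12 alternatives). Penk, the enkephalin precursor, had 17.9 in Control 1 and 1.68 and 2.51 in Control 2 and 3, and 9.51, 12.01 and 6.47 in the treated-label libraries. Its groups overlapped, with Control 1 the highest of all libraries, and the log2 fold changes of Penk and Adm were -0.09 and -0.27. Over the 12 alternatives they ran from -0.31 to 2.14 and from -1.02 to 0.14, so neither kept its direction.

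Among the carboxypeptidase, amidation and cyclization enzymes, 1 of 9 tested genes was called lower in edgeR and 0 higher. Of all genes tested, 2.57% were called lower and 1.13% higher. At an unadjusted p under 0.05 in edgeR there were 3 lower and 1 higher, against 13.0% and 12.4% of all genes. In DESeq2 there were 2 lower and 1 higher, against 8.54% and 6.53%. Cpxm1, a carboxypeptidase-like protein without known enzyme activity, had 46.9, 122 and 123 normalized CPM in Control and 14.97, 12.5 and 11.4 in the treated-label libraries. The groups did not overlap (log2 fold change -2.71, SE 0.42, adjusted p = 0.0408 in edgeR), and the call held in 8 of 12 alternatives (adjusted p from 1.24e-07 to 0.173). Pam, the enzyme that amidates peptides after Cpe has acted, had 316, 356 and 369 in Control and 1028, 649.9 and 759.5 in the treated-label libraries. Each of these was higher than every Control library, yet Pam did not pass (log2 fold change 1.26, SE 0.25, adjusted p = 0.0646 in edgeR, under 0.05 in 2 of 12 alternatives). Aebp1 and Cpxm2, related proteins, stood at -1.59 and 0.81 on the log2 fold change scale and did not pass (adjusted p = 0.0943 and 0.261 in edgeR, under 0.05 in 2 and 0 of 12 alternatives).

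None of the 6 tested other proprotein convertases was called in edgeR, where 1, Furin, had an unadjusted p under 0.05 and was lower. Of all genes tested, 13.0% were lower at that level. Furin, which cuts precursors in the Golgi of most cells, had 149.7, 159.6 and 161 normalized CPM in Control and 99.2, 105 and 93.1 in the treated-label libraries. All of the latter were lower, with a log2 fold change of -0.65 (SE 0.11, adjusted p = 0.0509 in edgeR). Over the 12 alternatives its adjusted p ran from 2.13e-05 to 0.196 and was under 0.05 in 5, which were DESeq2 and edgeR with all 6 libraries kept, with the size factors of DESeq2, without a filter and with a minimum count of 30. Pcsk6, at a log2 fold change of 0.70, and Mbtps1, at 0.16, did not pass either (adjusted p = 0.281 and 0.563 in edgeR).

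None of the 12 tested genes of dense-core vesicles and secretion was called in edgeR, with 2 higher and 4 lower at an unadjusted p under 0.05 and 2 higher and 1 lower in DESeq2. Over all genes tested these shares were 12.4% higher and 13.0% lower at an unadjusted p under 0.05, and 6.53% and 8.54% in DESeq2. Rab27a and Vamp2, which act in granule docking and fusion, had log2 fold changes of 1.27 and 0.65 and Sytl4, which binds Rab27a, one of -0.57, and none passed (adjusted p = 0.0789, 0.0793 and 0.154 in edgeR, under 0.05 in 3, 2 and 1 of 12 alternatives). Ptprn, a dense-core granule membrane protein singled out after its values were seen, had 78, 401 and 373 counts in Control and 4, 9 and 9 in the treated-label libraries. Its groups did not overlap, Control 1 was below the other Control libraries, and its log2 fold change of -5.04 (SE 0.88) did not pass (adjusted p = 0.0509 in edgeR, 2.02e-07 to 0.188 over the 12 alternatives and under 0.05 in 8). Insm1 had 2 counts at most and Rph3a had 0 in each library.

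**Figure D3:**
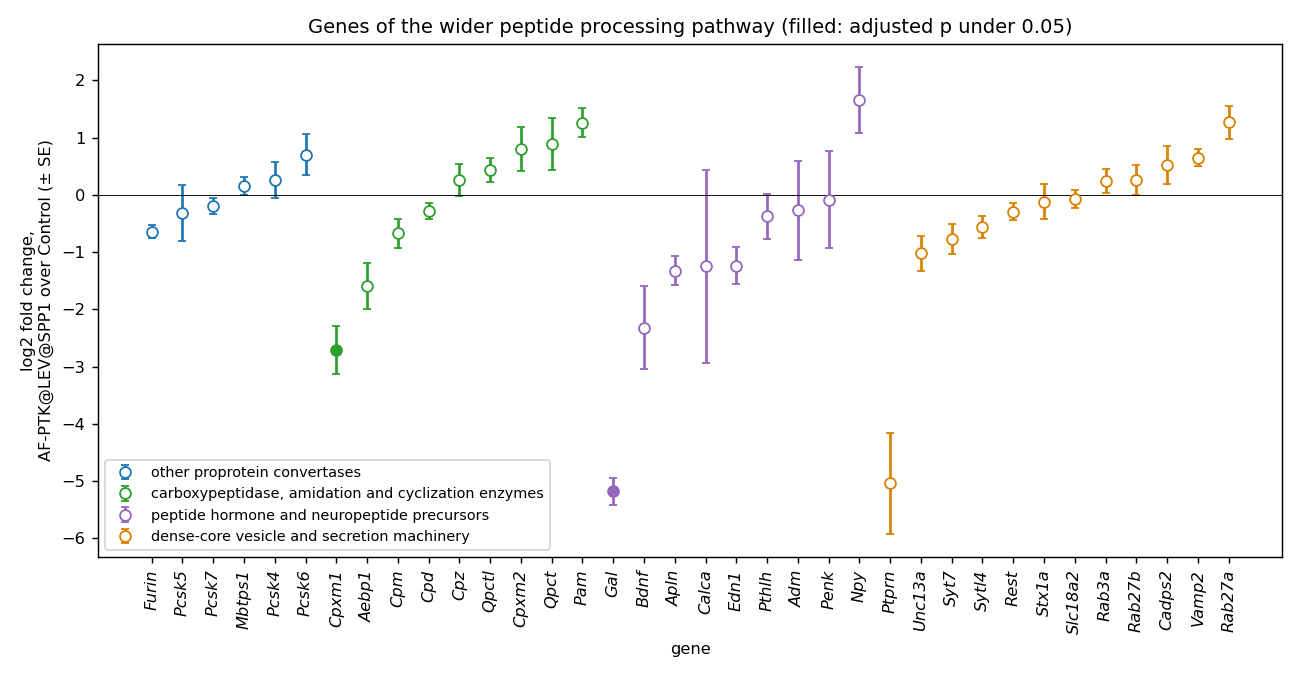
Log2 fold change (± SE) of the treated-label libraries over Control for tested genes of the 4 lists, coloured by list and ordered within each. Filled points, Gal at -5.18 and Cpxm1 at -2.71, had an adjusted p under 0.05 in edgeR, and Ptprn at -5.04 did not.

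Markers of cell types that could carry granins were read beside Scg5. The summed normalized CPM of 10 neuron markers was 19.4, 21.4 and 21.7 in Control and 20.1, 14.95 and 23.2 in the treated-label libraries, led by Uchl1, the marker with the most counts over the 6 libraries together, and with Elavl3 at 0. Markers that lead the lists below are named by the same rule. These sums overlapped between the groups. The 5 tested neuron markers, Tubb3, Stmn2, Prph, Uchl1 and Gap43, had log2 fold changes of -2.53, -1.89, 0.22, 0.24 and 0.68, and 0 were called in edgeR, with 0 higher and 2 lower at an unadjusted p under 0.05 and 0 higher and 2 lower in DESeq2. The sum of 8 sympathetic and chromaffin markers was 5.96, 1.87 and 1.90 against 15.1, 16.8 and 9.37, led by Slc6a2, with no overlap. The 3 tested markers, Slc6a2, Th and Ddc, had log2 fold changes of 2.73, 3.82 and 0.31. In edgeR 0 were called, with 2 higher and 0 lower at an unadjusted p under 0.05, as in DESeq2 after adjustment. Th passed the filter on low counts only through the treated-label libraries, and Slc6a2 would not have passed on Control alone. A higher direction was thus built into the testing of both. For both lists the shares over all genes tested were 12.4% higher and 13.0% lower unadjusted, and 6.53% and 8.54% in DESeq2. In the sympathetic and chromaffin list Hand2 was at 0 and Dbh, which defines noradrenergic cells, had 0 counts in Control and 3, 1 and 2 in the other group. The part of these cell types in the values of Scg5 was not tested.

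The sums of Schwann cell, adipocyte and nucleus pulposus markers were higher in every treated-label library than in every Control library, as Scg5 was. In edgeR 0 genes of these lists were called. At an unadjusted p under 0.05, 6 of 8, 6 of 8 and 4 of 6 tested genes were higher and 0 lower. The same numbers were called in DESeq2. Of all genes tested, 12.4% were higher unadjusted and 6.53% in DESeq2. All 8 tested Schwann markers had a positive log2 fold change, and their sum was 304, 281 and 262 in Control against 475, 967 and 1299, led by S100b. All 8 adipocyte markers did too, with sums of 299, 58.7 and 56.4 against 687, 1158 and 486, led by Adipoq. The 6 tested nucleus pulposus and notochord markers did as well, with sums of 762, 333 and 327 against 4230, 1504 and 1791, led by Cd24 and with Noto at 0. Over all genes tested the median log2 fold change was 0.05. Mag, Sox10, Adrb3 and Shh passed the filter on low counts only through the treated-label libraries, and Lep would not have passed on Control alone. A higher direction was thus built into the testing of these genes. The Schwann sum was highest in library 3, as Scg5 was, the adipocyte sum in library 2 and the nucleus pulposus sum in library 1. Their part in the result was not tested.

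Erythroid and skeletal muscle markers were uneven across the libraries. All 7 tested erythroid and all 9 tested muscle markers also had a positive log2 fold change, and 0 were called in edgeR. The erythroid sum was 2393, 3196 and 3284 in Control and 2504, 20490 and 14060 in the treated-label libraries, led by Hba-a1, and the muscle sum was 1151, 1447 and 1460 against 1082, 10540 and 2838, led by Acta1. Library 2 was the highest in both, and library 1 was within or just below the range of Control. The part of erythroid and muscle content in the values of Scg5 was not tested. The macrophage sum was 3183, 2151 and 2128 against 723, 1993 and 2008, led by Lyz2. It was lower in every treated-label library, with library 1 far below the others.

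Among the 95 tested genes of all 13 marker lists, Chad was called higher and Cd68 and Cd14 lower in edgeR's quasi-likelihood test with Benjamini-Hochberg adjustment (adjusted p = 0.0454, 0.0231 and 0.0119), where 1.13% of all genes tested were called higher and 2.57% lower. At an unadjusted p under 0.05 there were 21 higher and 11 lower of the 95, against 12.4% and 13.0% of all genes, and in DESeq2 23 higher and 9 lower, against 6.53% and 8.54%. Some tested genes, such as Th and Mag, passed the filter on low counts only through the treated-label libraries, where a higher direction was built in. The sums of the chondrocyte list, led by Col2a1, were 21280, 28960 and 28820 against 37120, 26690 and 40420, and those of the annulus list, led by Col1a1, were 35720, 52990 and 53340 against 74150, 52400 and 62580. Both overlapped between the groups. Endothelial sums, led by Pecam1, were 498, 603 and 586 against 375, 436 and 433, osteoblast sums, led by Ibsp, 4667, 1842 and 1842 against 2213, 3174 and 1844, and mast cell sums, led by Kit, 24.2, 19.4 and 19.6 against 18.9, 31.8 and 20.5. The endothelial sums were lower in the treated-label libraries, and the osteoblast and mast cell sums overlapped. Their part in the values of the granins and processing enzymes was not tested.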

How the data were processed

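Bulk RNA of 6 disc libraries was analysed. The authors deposited counts, whole numbers of reads per rat Ensembl gene and library, not normalized. The submitters' processing notes list FastQC, Trimmomatic, HISAT2, featureCounts, DESeq2 and the build mm10, with no versions. The use of strand and of reads shared between genes was not given in the sources used here. Counts were fitted in R 4.3.3 with edgeR 4.0.16 (trimmed mean of M-values, filterByExpr with a minimum count of 10, quasi-likelihood test, Benjamini-Hochberg adjustment, calls at an adjusted p under 0.05). Counts of Control 2 and 3 were summed. The SE was the log2 fold change over the square root of the F statistic. The procedure was tested on simulated data, where false calls were more frequent than the nominal level in edgeR and much more so in DESeq2. P-values weigh the difference between the groups against the spread estimated from these few distinct samples. Alternatives were all 6 libraries kept, a replicate block, DESeq2 1.42.0, its size factors, other filters, and each library left out. The members and lists were chosen with earlier results of these data known. Named pathway genes were those called and the 3 with the highest mean CPM of each list, and some listed genes, counted in the totals, are not reported here by name or drawn. Patterns like Scg5 were ranked on log2 CPM with a prior count of 2. Promoters were searched in Python 3.11.15.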

Additional observations from a re-analysis of the deposited data

How the results depend on the processing

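The log2 fold change of Scg5 was 4.07 to 4.93 over the 12 alternatives, without a change of direction, and those of Cpe, Pcsk1n and Pcsk2 kept their direction in every alternative that gave a value (0.38 to 0.88, 0.72 to 1.40 and 1.24 to 1.87). Pcsk2 gave no value with a minimum count of 30. That of Pcsk1 moved from -2.18 to -1.24 without Control 1.

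The number of genes called was 575 (30.4% of them higher). It was 2727 with all 6 libraries kept (45.2% higher), 2493 in DESeq2 (43.3% higher) and 0 to 566 with each library left out, with 0 without treated-label library 2 and without treated-label library 3, 113 without treated-label library 1 and 280 without Control 1. Of the pathway genes of the 4 lists, 3 were called. There were 14 with all 6 libraries kept, 12 in DESeq2, 5 with the size factors of DESeq2, 6 without a filter, 5 with a minimum count of 30, and 0 to 4 with each library left out. Keeping the near-identical pair as 2 samples adds a sample to the count. The cause of the other changes was not tested.

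Libraries with the same replicate number did not deviate together (r of deviations -0.326, -0.282 and -0.0756). The near-identical Control libraries deviated almost alike, so these values cannot decide whether the numbers pair the samples. With all 6 libraries kept and a replicate block, 741 genes (41.4% higher) and 4 pathway genes were called, against 2727 and 14 without the block, and the log2 fold change of Scg5 was 4.49.

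A planned comparison of the order of the members' levels per kilobase was not run, because transcript lengths were not used here. With n = 2 distinct Control samples that differed from each other, the calls depend on single libraries. Granins other than Scg5 had at most 11 counts, so only large differences were detectable. Counting intervals do not cover differences between rats. Tissue makeup was not controlled for.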
